A study of Mus musculus with 8 samples.

Results

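The 10 genes described here encode pore-forming subunits of the ionotropic glutamate receptors, the ion channels that glutamate opens at most excitatory synapses of the brain. They were chosen by name, as the entries of the gene table for 4 AMPA receptor subunits (Gria1, Gria2, Gria3 and Gria4), 3 NMDA receptor subunits (Grin1, Grin2a and Grin2b) and 3 kainate receptor subunits (Grik2, Grik3 and Grik5). All 10 were found among the 23845 genes of the table, and all 10 passed the filter for testing, a mean level of 1 TPM or more, as 13681 genes did. TPM, the usual scaled measure of transcript abundance, is the share of a gene's transcripts in a library after division by transcript length, so levels of different genes can be set side by side.

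Primary hippocampal neurons from mouse embryos at embryonic day 19 were infected at 13 to 15 days in vitro with a lentivirus and harvested at 17 to 19 days in vitro. The virus carried either a scrambled short hairpin RNA or a hairpin against CNOT7, a deadenylase that removes the poly(A) tail of mRNAs as part of the CCR4-NOT complex. Polyadenylated RNA was captured on poly(U) agarose and either eluted whole at 75 °C (total) or washed at 50 °C first to take off tails under 50 nucleotides (long tails). This gave 4 groups of 2 libraries, scrambled total, knockdown total, scrambled long tails and knockdown long tails, all of them from infected cultures. Which hairpin sequence was used and what share of cells took up the virus is not stated in the labels. Separate cultures are not named for the 2 libraries of any group, so each p-value measures only the spread between these libraries, which may be technical.

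Ionotropic glutamate receptors are tetramers, and the subunits in a tetramer set its gating, its ion selectivity and its trafficking. AMPA receptors carry most of the fast excitatory current, NMDA receptors admit calcium when glutamate binding coincides with depolarization, and kainate receptors act on both sides of the synapse. Several of these mRNAs are found in dendrites, and the length of the poly(A) tail is a known point of control for local translation in hippocampal neurons.

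One codon in the pore loop sets the NMDA subunits apart from the AMPA and kainate subunits, and it is shown here because it bears on calcium permeability, a main functional difference between the subunits. In Gria2 and Grik2 the glutamine codon can be changed to arginine by RNA editing, the so-called Q/R site, and in NMDA subunits an asparagine at the matching place takes part in the block by magnesium. The reference coding sequence (GENCODE M21 transcripts, GRCm38) is printed 5′ to 3′ for 30 bases of 9 subunits, with the codon of this site in capitals.
Gria1: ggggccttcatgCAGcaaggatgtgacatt
Gria2: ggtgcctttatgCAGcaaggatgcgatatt
Gria3: ggtgcttttatgCAGcaaggatgtgatatt
Gria4: ggtgcctttatgCAAcaaggatgtgacatt
Grik2: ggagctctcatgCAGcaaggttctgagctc
Grik3: ggctccctgatgCAGcaaggatctgaactg
Grik5: ggtggcttcatgCAGcagggctcggagatc
Grin1: ggcgtcctgctcAACtctggcattggggaa
Grin2a: ggcctggtcttcAACaattctgtgcccgtc

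The AMPA windows lay at chr11:57243082-57243111 (Gria1, plus strand, exon 11 of 16, codon 600), chr3:80706896-80706925 (Gria2, minus strand, exon 11 of 16, codon 607), chrX:41610253-41610282 (Gria3, plus strand, exon 11 of 16, codon 612) and chr9:4464122-4464151 (Gria4, minus strand, exon 12 of 17, codon 608). The NMDA windows lay at chr2:25297371-25297400 (Grin1, exon 13 of 20, codon 616) and chr16:9653546-9653575 (Grin2a, exon 10 of 14, codon 614), both on the minus strand. The Grik5 window lay at chr7:25022482-25022511 (minus strand, exon 15 of 20, codon 605). The Grik2 window (codon 621, minus strand, chr10:49240786-49244343) and the Grik3 window (codon 623, plus strand, chr4:125691195-125693972) each crossed an intron, so their genomic spans exceed 30 bases. Codons are counted from the start codon. All 4 AMPA and all 3 kainate subunits had a glutamine codon in the genome, and Grin1 and Grin2a had an asparagine codon. Pairs of AMPA windows shared 26 to 28 of 30 bases, kainate pairs 19 to 23, Grin1 and Grin2a 13, and pairs from different families 7 to 22. The gene table gives 1 value per gene, so edited and unedited Gria2 and Grik2 mRNA were not analysed here.

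Before the members, the state of the libraries is given. Cnot7 was at 42 and 36 TPM in the scrambled total libraries and at 12 and 16 TPM in the knockdown ones, while its long-tail levels were 28 and 31 against 9 and 11 TPM. The knockdown and scrambled libraries did not overlap in either fraction. Cnot7 was listed in both of the authors' deposited tables (adjusted p = 3.96e-05 and 1.02e-05), yet it missed the threshold of the limma fit used here (adjusted p = 0.153 in total RNA and 0.173 in long tails), so a gene that misses it cannot be read as unchanged. All 5 neuronal markers (Tubb3, Map2, Rbfox3, Snap25 and Syt1) were detected in every group, with summed levels of 2017 to 3130 TPM over the 8 libraries. Glia were present too: the 5 astrocyte markers summed to between 2194 and 4101 TPM. The oligodendrocyte lineage markers Mbp, Mog, Olig2 and Pdgfra were all detected in each group. They summed to 583 to 846 TPM in the 4 scrambled libraries and 307 to 399 TPM in the 4 knockdown libraries. Mbp varied most, from 155 to 661 TPM over the 8 libraries, while Olig2 stayed at 128 to 170, Pdgfra at 19 to 47 and Mog at 1 to 4 TPM. The sum therefore does not describe the lineage as a whole, and the part of these cells in the differences described here was not tested. Of 5 microglial markers, 3 were listed at 0 in every library and the 5 together reached at most 2 TPM. The ribosomal precursor Rn45s took between 2.90% (knockdown long-tail library 2) and 18.6% (knockdown long-tail library 1) of a library's TPM. These 2 libraries correlated across genes at r = 0.966, against 0.982 to 0.985 in the other groups, which does not tell which of them stood apart. Library 2 held the lowest of the 8 values for 27.1% of tested genes and library 1 for 15.9%, the largest shares of any library. The results that rest most on knockdown long-tail library 2 are given with and without it. In bulk RNA from a mixed culture, fewer cells of a type and less RNA per cell cannot be told apart.

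The subunits fell into an abundant and a scarce set. In scrambled total RNA, Grin1 was at 242 ± 43.8 TPM (SD, n = 2, as for all such values), Gria1 at 212.5 ± 4.95, Gria2 at 170.5 ± 10.6 and Grik5 at 161.5 ± 33.2 TPM. The others were at 56.5 ± 4.95 (Gria3), 49.5 ± 13.4 (Grin2b), 38.5 ± 7.78 (Gria4), 28 ± 9.90 (Grin2a), 27 ± 2.83 (Grik2) and 13.5 ± 0.707 TPM (Grik3). In this order the libraries of neighbours overlapped except between Gria1 and Gria2, between Grik5 and Gria3, and between Grik2 and Grik3. Grin1 had the highest mean and Grik3 the lowest mean in all 4 groups, and the same 4 genes held the 4 top places in each. Together the 10 genes summed to 1023 and 976 TPM in scrambled total RNA, 1029 and 1040 in knockdown total RNA, 742 and 735 in scrambled long tails, and 815 and 580 in knockdown long tails.

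**Figure D1:**
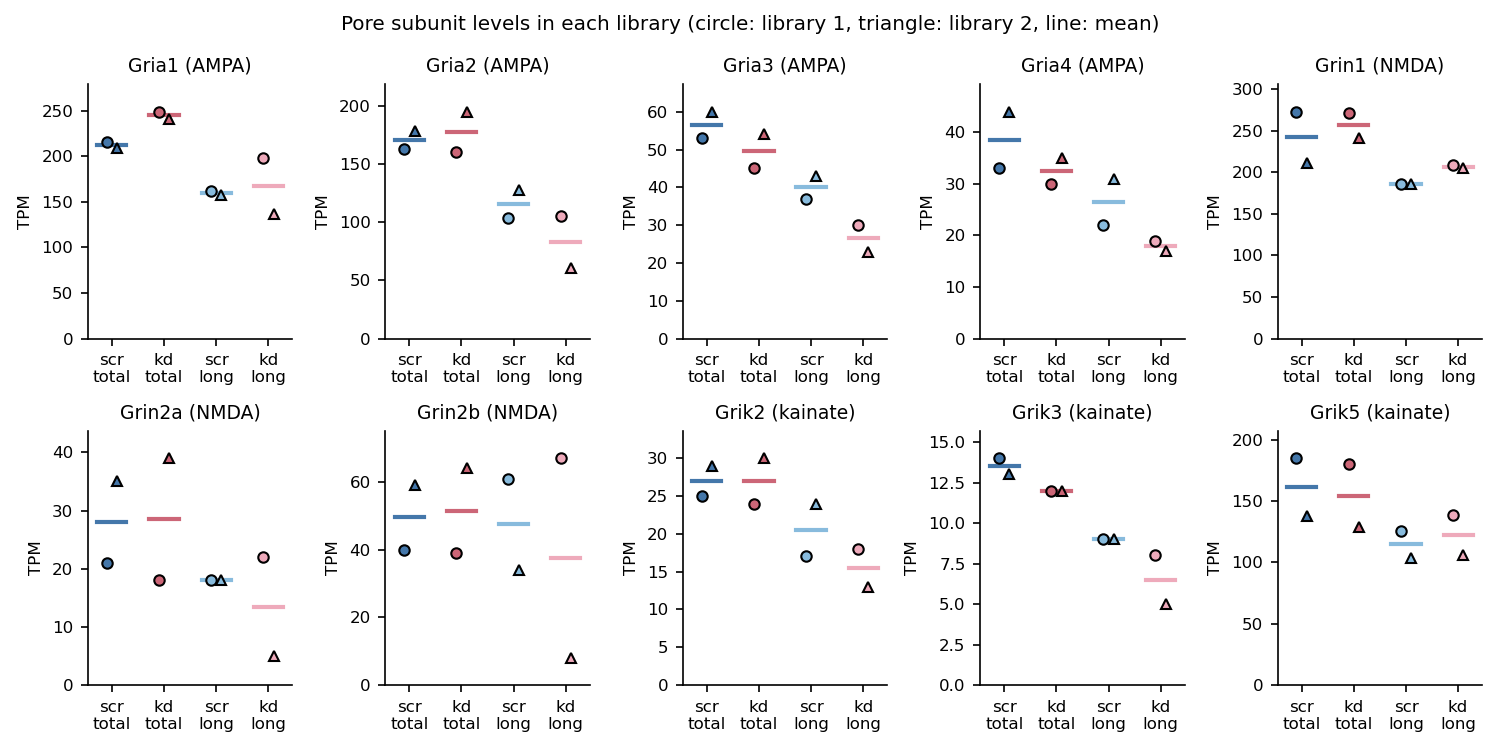
Level of each subunit in TPM (vertical axis, starting at 0) in the 4 groups, scrambled (scr) or CNOT7 knockdown (kd), total or long-tail RNA. Circles are library 1, triangles library 2 and lines group means (n = 2). Grin2b ran from 8 TPM in knockdown long-tail library 2 to 67 TPM in knockdown long-tail library 1, a wider spread than in any other group of that gene.

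In total RNA none of the 4 AMPA receptor mRNAs passed the test between the hairpins, and only Gria1 had libraries that did not overlap. Gria1, the subunit most tied to activity-dependent insertion of AMPA receptors, was at 216 and 209 TPM in scrambled total RNA and at 249 and 241 TPM in knockdown total RNA. Both knockdown libraries lay above both scrambled libraries, a difference of 0.20 in log2(TPM + 1) (SE 0.180). Gria2, the subunit whose edited form keeps calcium out, was at 163 and 178 against 160 and 195 TPM, with overlapping libraries. Gria3 was at 53 and 60 against 45 and 54 TPM and overlapped too. Gria4, a subunit with fast kinetics that is prominent in interneurons, was at 33 and 44 against 30 and 35 TPM. The differences were 0.05 for Gria2 (SE 0.277), −0.19 for Gria3 (SE 0.180) and −0.23 for Gria4 (SE 0.223).

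The NMDA and kainate subunits overlapped between scrambled and knockdown total RNA in all but 1 case. Grin1, the glycine-binding subunit that every NMDA receptor needs, was at 273 and 211 TPM in scrambled and 272 and 241 TPM in knockdown total RNA. Grin2a, the glutamate-binding subunit that gains weight as hippocampal synapses mature, was at 21 and 35 against 18 and 39 TPM. Grin2b, its counterpart at younger synapses, was at 40 and 59 against 39 and 64 TPM. In both groups library 2 was the higher one for Grin2a and Grin2b and the lower one for Grin1. Grik5, a high-affinity kainate subunit that forms channels only with partners such as Grik2 or Grik3, was at 185 and 138 against 180 and 129 TPM. Grik2, a low-affinity subunit that can form channels alone, was at 25 and 29 against 24 and 30 TPM. Grik3, its low-affinity relative, was at 14 and 13 against 12 and 12 TPM, the 1 case without overlap (log2 difference −0.16, SE 0.205).

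In the limma fit over all tested genes, 0 of the 10 subunits passed an adjusted p under 0.05 for knockdown in total RNA, where 0% of all genes passed (868 had an unadjusted p under 0.05). None of the 10 had an unadjusted p under 0.05. The log2 differences ran from −0.23 (Gria4) to 0.20 (Gria1), with 4 above 0, 6 below 0 (4 below after quantile normalization, when Grin2a and Grik2 changed sign) and a median of −0.02, beside a median of −0.07 over all genes. Without overlap of libraries, 1 subunit was higher (8.68% of all genes were) and 1 was lower (20.1% of all genes were). The 95% confidence intervals were widest for Grin2b (−2.32 to 2.40) and Grin2a (−1.77 to 1.71) and narrowest for Grin1 (−0.28 to 0.46), so for Grin2a and Grin2b a several-fold difference in either direction could not be detected in these libraries. The sign of the difference turned for Gria2, Grin1, Grin2a, Grin2b, Grik2 and Grik5 when 1 library was left out, and it is not given as a direction.

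In long-tail RNA the AMPA subunits parted: Gria1 overlapped between the hairpins, while Gria3 and Gria4 were lower after knockdown in both libraries. Gria1 was at 162 and 158 TPM in scrambled and 198 and 137 TPM in knockdown long tails, 1 knockdown library above and 1 below both scrambled ones. Gria2 was at 104 and 128 against 105 and 61 TPM. Only knockdown library 2 was below the scrambled range for Gria2, whose log2 difference was −0.52 (SE 0.277) and −0.13 without that library. Gria3 was at 37 and 43 against 30 and 23 TPM, a log2 difference of −0.58 (SE 0.180, 95% confidence interval −1.03 to −0.14). It was the 1 subunit with an unadjusted p under 0.05 in this comparison (adjusted p = 0.503 in limma), which 6.47% of all genes reached in the lower direction. Gria4 was at 22 and 31 against 19 and 17 TPM (log2 difference −0.52, SE 0.223, limma adjusted p = 0.586). Without knockdown long-tail library 2 the differences were −0.40 for Gria3 and −0.44 for Gria4.

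Among the NMDA subunits in long tails, the 2 libraries of each group stayed close to each other for Grin1. They were far apart for Grin2b in both groups and for Grin2a in the knockdown group only. Grin1 was at 186 in both scrambled libraries and at 209 and 205 TPM in the knockdown libraries, higher without overlap (log2 difference 0.15, SE 0.149, limma adjusted p = 0.746). Grin2a was at 18 in both scrambled libraries and at 22 and 5 TPM in the knockdown libraries. Grin2b was at 61 and 34 against 67 and 8 TPM. In knockdown library 1 both were above both scrambled libraries, and in knockdown library 2 both were below them. Their log2 differences were −0.69 (SE 0.701) and −0.91 (SE 0.947), and without knockdown long-tail library 2 they were 0.28 and 0.55.

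Of the kainate subunits in long tails, Grik3 was lower after knockdown in both libraries, at 9 in both scrambled libraries and at 8 and 5 TPM in the knockdown libraries (log2 difference −0.44, SE 0.205, limma adjusted p = 0.602). Without knockdown long-tail library 2 it was −0.15. Grik2 was at 17 and 24 against 18 and 13 TPM, and Grik5 at 126 and 104 against 139 and 106 TPM, both with overlap. The Grik2 difference was −0.38 (SE 0.243), and −0.16 without that library.

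Over the 10 subunits, knockdown in long tails gave 3 differences above 0 and 7 below, with a median of −0.48 beside −0.10 over all genes. None passed an adjusted p under 0.05, as 0% of all genes did (1193 had an unadjusted p under 0.05). Grin1 was higher without overlap (8.91% of all genes were), and Gria3, Gria4 and Grik3 were lower without overlap (17.1% of all genes were, and 19% of the 9297 genes with mean levels of 10 TPM or more, the range that holds all 10 subunits). The median rested on knockdown long-tail library 2. That library held the lowest of the 8 values for 8 of the 10 subunits (27.1% of all genes), the exceptions being Grin1 and Grik5. Without it, 5 of the 10 differences were below 0 and their median was 0.02. Without knockdown long-tail library 1 instead, 9 of the 10 were below 0 and the median was −0.67.

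**Figure D2:**
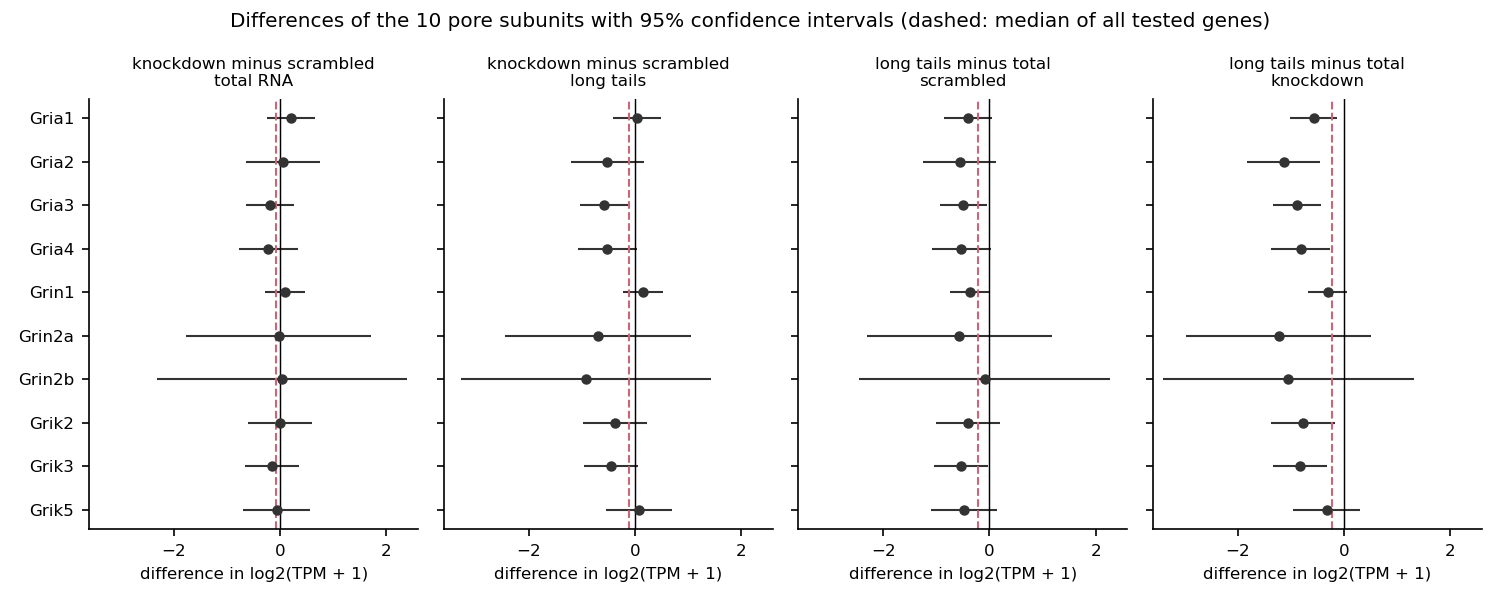
Difference in log2(TPM + 1) of each subunit (horizontal axis) in the 4 comparisons, with 95% confidence intervals from the limma fit (8 libraries). The solid line is 0 and the dashed line is the median of all tested genes, from −0.07 to −0.22, and all 10 points lie left of 0 in both comparisons of long tails with total RNA, although with values centred on the library median Grin2b (scrambled) and Grin1 and Grik5 (knockdown) lie to the right.

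Every one of the 10 mRNAs had a smaller mean TPM in the long-tail than in the total libraries with either hairpin, and after median centring this held for all but Grin2b in scrambled and Grin1 and Grik5 in knockdown neurons. Since TPM is a share within a library, this is a difference of shares and not a tail length. In scrambled neurons the log2 difference, long tails minus total, ran from −0.57 (Grin2a) to −0.09 (Grin2b), with a median of −0.48 beside −0.22 over all genes. The libraries did not overlap for 9 subunits, all but Grin2b, where 39.6% of all genes and 45.6% of those at 10 TPM or more were lower without overlap. Gria3 (−0.49, SE 0.180) and Grik3 (−0.54, SE 0.205) had an unadjusted p under 0.05, as 12.9% of all genes did in the lower direction, but the limma adjusted p was 0.377 for both. After quantile normalization, rescaling without Rn45s or median centring, 0 of the 10 had an unadjusted limma p under 0.05. The adjusted p passed 0.05 for 0% of all genes (1800 had an unadjusted p under 0.05). The smallest differences that were still free of overlap were those of Grin1 (−0.37), Grik2 (−0.40) and Gria1 (−0.41). Scaling moved the median of all genes from −0.22 to −0.02 with quantile normalization, and relative to it 9 of the 10 subunits remained lower, Grin2b being the exception in both scalings. A lower share in long tails was not particular to these subunits. Among the lists described below, the median was −0.44 for other ionotropic subunits and −0.42 for metabotropic receptors. It was −0.37 for auxiliary subunits, −0.45 for scaffold and trafficking partners and −0.46 for RNA editing and RNA-binding factors.

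In knockdown neurons the same comparison gave a median of −0.82 for the 10 subunits, beside −0.22 over all genes. The medians of the lists, in the order just given, were −0.44, −0.77, −0.40, −0.69 and −0.71. Gria2 went from 160 and 195 TPM in total RNA to 105 and 61 TPM in long tails (log2 difference −1.13, SE 0.277, limma adjusted p = 0.140). Gria3 differed by −0.88, Grik3 by −0.82, Gria4 by −0.82, Grik2 by −0.77 and Gria1 by −0.57. These 6 had an unadjusted p under 0.05, as 25.1% of all genes did in the lower direction, with limma adjusted p from 0.140 to 0.146. They and Grin1 (−0.31) were lower without overlap, 7 of 10 in all, where 40% of all genes and 44% of those at 10 TPM or more were. The share of all genes past an adjusted p of 0.05 was 0% (3562 had an unadjusted p under 0.05). Grik5 (−0.33), Grin2a (−1.23) and Grin2b (−1.04) overlapped between the fractions. After median centring, which put the median of all genes at 0.11, 8 of the 10 were below 0 and 10 of 10 below that median. An unadjusted limma p under 0.05 was then reached by 4 of the 10, and by 5 after quantile normalization.

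These values changed with the library kept. Without knockdown long-tail library 2, 9 of the 10 differences were below 0 with a median of −0.42, and 0 genes passed. Grin2b was then at 0.42, Grin2a at −0.26, Grik5 at −0.13, Grin1 at −0.29 and Gria1 at −0.31. Gria2 and Gria4 were at −0.74, Gria3 at −0.70, Grik2 at −0.55 and Grik3 at −0.53, so without that library Gria2, Gria3 and Gria4 had the largest differences of the 10. Grin2a spanned −2.20 without library 1 to −0.26 without library 2. Without knockdown long-tail library 1, which leaves library 2 alone and takes its spread from the other groups, all 10 differences were below 0. Their median was then −1.03, beside −0.19 over all genes. Gria1 was at −0.83, Gria2 at −1.52, Gria3 at −1.07, Grin2b at −2.50, Grik2 at −0.99 and Grik3 at −1.12 in this fit.

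Whether knockdown moved the subunits differently in long tails and in total RNA was tested with the interaction term, in which the difference for total RNA is subtracted from that for long tails. It was below 0 for 8 of 10 subunits, from −0.95 (Grin2b, SE 1.34) to −0.16 (Gria1), and above 0 for Grik5 (0.15) and for Grin1 (0.06, but below 0 after quantile normalization and without Rn45s), with a median of −0.33 beside −0.02 over all genes. No subunit passed, as 0% of all genes did (120 genes had an unadjusted p under 0.05, none of the 10 among them, and the smallest adjusted p of any gene was 0.522 in limma). Without knockdown long-tail library 2, 4 of the 10 were below 0 and the median was 0.04. Without knockdown long-tail library 1 instead, 9 of the 10 were below 0 and the median was −0.58.

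The make-up of each receptor family was then described within a library, where the scaling of the library cancels. The AMPA pool of long-tail RNA held a larger share of Gria1 after knockdown. Gria1 made up 49.8% and 43.9% of the summed AMPA TPM in scrambled long tails and 56.2% and 57.6% in knockdown long tails, with means of 46.9% ± 4.21 and 56.9% ± 0.928. Gria2 went the other way, from 32% and 35.6% to 29.8% and 25.6%. Gria3 had 11.4% and 11.9% in scrambled and 8.52% and 9.66% in knockdown long tails. None of these 3 shares overlapped between the hairpins. Counting all families, 6 of the 10 shares did not overlap between the hairpins in long tails (Grik2, Grik3 and Grik5 being the others) and 2 in total RNA, though shares of a family sum to a fixed whole and are not independent. The exact permutation test, two-sided, gave p = 0.3333 for each of these, the smallest that 2 libraries against 2 can give, so no share could pass. That value is also the part of all orderings in which 2 libraries stay apart from 2. No background over all genes was made for shares, so the counts are not read as a result. The Gria1 difference of 10.04 percentage points was 9.38 without knockdown long-tail library 2, and ran from 7.06 to 13.02 over the libraries left out in turn.

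In total RNA the same shares were nearer to each other. Gria1 made up 46.5% and 42.6% of AMPA TPM in scrambled and 51.4% and 45.9% in knockdown total RNA, which overlapped. Gria2 had 35.1% and 36.3% against 33.1% and 37.1%, also with overlap. Gria3 had 11.4% and 12.2% against 9.30% and 10.3%, and Gria4 7.10% and 8.96% against 6.20% and 6.67%, both lower after knockdown in each library. The Gria3 share was lower without overlap in both fractions, with differences of −2.02 and −2.57 percentage points. The exact permutation p was 0.3333 in each, the smallest possible. Since Gria3 is named here by its overlap, this is not read as a result either. The total and long-tail libraries of a hairpin may share cultures, so the fractions are not known to be independent.

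**Figure D3:**
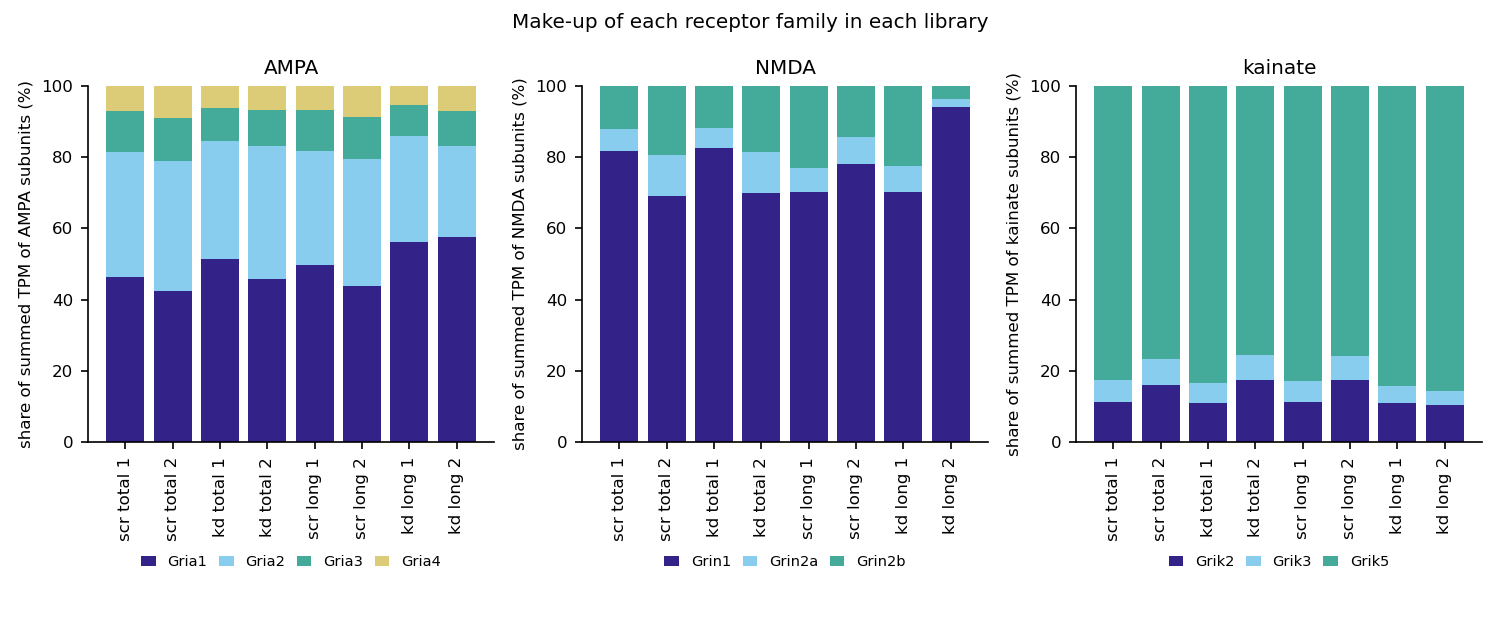
Share of each subunit in the summed TPM of its family (vertical axis, percent) in each of the 8 libraries, scrambled (scr) or knockdown (kd), total or long-tail RNA. Gria1 takes its 2 largest AMPA shares, 56.2% and 57.6%, in the knockdown long-tail libraries, and Grin1 takes 94.0% of the NMDA pool in knockdown long-tail library 2.

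The NMDA pool varied more between the libraries of a group than between groups. Grin1 made up 81.7% and 69.2% of NMDA TPM in scrambled total RNA, 82.7% and 70.1% in knockdown total RNA, 70.2% and 78.2% in scrambled long tails, and 70.1% and 94.0% in knockdown long tails. The ratio of Grin2a to Grin2b, often used to describe synapse maturation, was 0.525 and 0.593 in scrambled and 0.462 and 0.609 in knockdown total RNA. The long-tail ratios were 0.295 and 0.529 against 0.328 and 0.625. The ratio overlapped between the hairpins in both fractions. The kainate pool was mostly Grik5, with 82.6% and 76.7% in scrambled total RNA, 83.3% and 75.4% in knockdown total RNA, 82.9% and 75.9% in scrambled long tails, and 84.2% and 85.5% in knockdown long tails. Only in long tails did its libraries not overlap between the hairpins, with a difference of 5.46 percentage points (exact permutation p = 0.3333, two-sided). That value was 1.97 without scrambled long-tail library 2 and 8.95 without scrambled long-tail library 1. Whether the difference between the hairpins was itself unlike in the 2 fractions was not tested for this share.

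The level of Grin2b varied with the share of Rn45s, a relation chosen after its values were seen. In each of the 4 groups the library with more Rn45s was the one with more Grin2b. The Rn45s shares were 6.86% and 7.80% (scrambled total), 6.07% and 14.3% (knockdown total), 17.2% and 7.46% (scrambled long tails), and 18.6% and 2.90% (knockdown long tails). Over the 8 libraries, log2(TPM + 1) of Grin2b and Rn45s gave a Pearson r of 0.878 (exact permutation p = 0.00223, adjusted over the 10 subunits 0.0223) and a Spearman rho of 0.905 (exact permutation p = 0.00456, adjusted 0.0456). Without the 2 libraries farthest from the median of Rn45s, both knockdown long-tail libraries, r was 0.773 over 6. For Grin2a, r was 0.670 (exact permutation p = 0.0807, adjusted 0.403) with a rho of 0.586 (exact permutation p = 0.137, adjusted 0.683), and r was 0.249 without those 2. The other 8 subunits had r from −0.19 (Grin1) to 0.33 (Gria2), with adjusted p of at least 0.776 by the same test. Without those 2 libraries all 8 had r from −0.47 to −0.29, so the sign turned for each of them but Grin1. Of the 13547 tested genes whose TPM was not the same in every library, 12 (0.0886%) had an r of at least that of Grin2b and 1.22% an r of at least that of Grin2a. The 8 libraries fall into 4 groups of 2 and are not known to be independent, while the permutations exchange them freely. The adjustment over the 10 subunits also does not cover the choice of Rn45s, so these p-values only describe the relation.

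**Figure D4:**
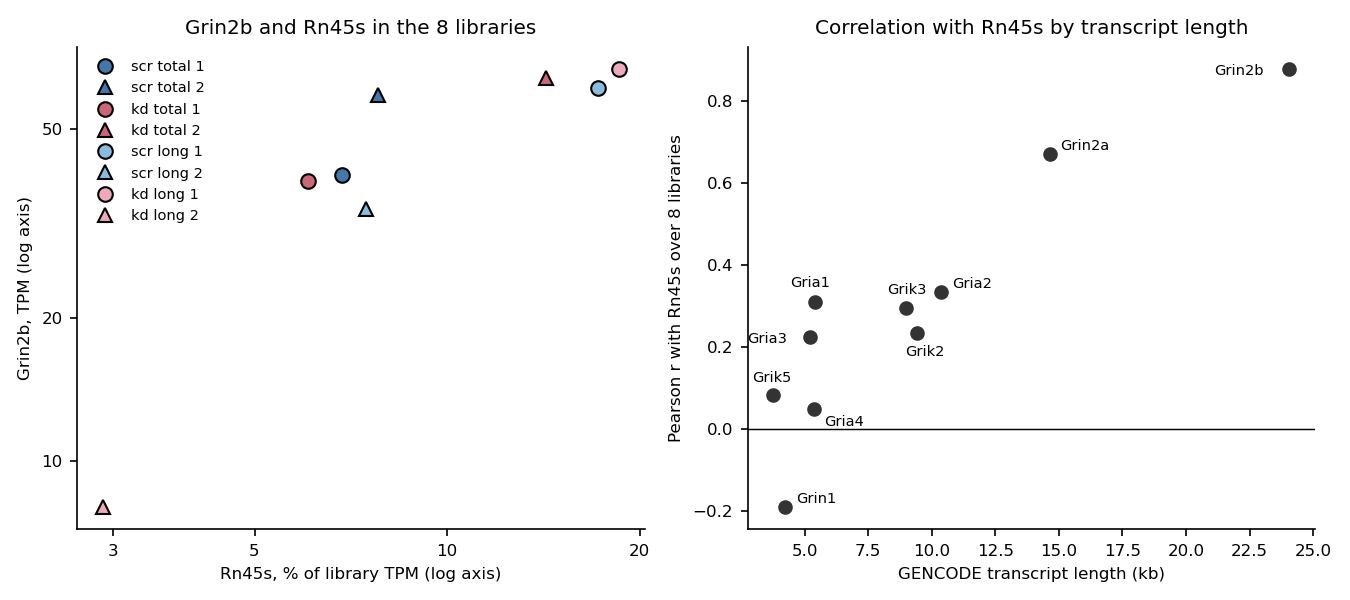
Left, TPM of Grin2b against the share of Rn45s in the 8 libraries, both on log axes, with color for the group (scr, scrambled; kd, knockdown) and shape for the library number. Right, Pearson r of each subunit with Rn45s over the 8 libraries against its GENCODE transcript length, where Grin2b (r = 0.878) and Grin2a (r = 0.670) have the 2 longest transcripts of the 10.

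Grin2b and Grin2a also had the longest 3′ untranslated regions of the 10. In the annotated transcript, that of Grin2b had 18865 bases (4 of 17787 coding genes had a longer one) and that of Grin2a 9929 bases (53 had a longer one), against a median of 973 over coding genes. Those of Gria2 (7268), Grik2 (6275) and Grik3 (6082) were next, followed by Gria1 (2597), Gria3 (2264), Gria4 (2256), Grin1 (1187) and Grik5 (520). Lengths were matched for 92.1% of tested genes, and among those with an r the median r with Rn45s was −0.51 for 3167 transcripts under 2 kb, −0.19 for 6737 from 2 to 5 kb, 0.25 for 2298 from 5 to 10 kb and 0.41 for 294 over 10 kb. These are descriptions across genes of the same 8 libraries, and genes are not independent replicates. The part of transcript length or of Rn45s content in the values of Grin2a and Grin2b was not tested.

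The last 100 bases of each annotated transcript were searched on the transcript strand for the cytoplasmic polyadenylation element, which CPEB proteins bind to control tail length, as TTTTAT or TTTTAAT. Only Gria3 held a match, 1 of 10 subunits, where 18.2% of 17787 coding genes did. It is shown because Gria3 was the subunit with an unadjusted p under 0.05 for knockdown in long tails. The site lay in the 3′ untranslated region at chrX:41678554-41678580 (GRCm38, plus strand), 38 bases before the annotated end, with the element in capitals.
Gria3: atgtacaaagTTTTAATacattttgta

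A poly(A) signal, AATAAA or ATTAAA, was in the same window in 9 of the 10 subunits, all but Grin1, and in 78.9% of coding genes. Searches covered only these letters and this window, and a match is not a shown binding site.

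Of the auxiliary proteins, which travel with the pore subunits, Cacng2, Shisa6 and Cnih3 had the smallest mean p over the knockdown comparisons. Cacng2, the transmembrane protein stargazin that brings AMPA receptors to the synapse, was at 20 and 14 TPM in scrambled and 46 and 37 TPM in knockdown total RNA, and at 10 and 12 against 34 and 18 TPM in long tails. Shisa6, a transmembrane protein that keeps AMPA receptors at the postsynaptic site, was at 104 and 78 against 35 and 38 TPM in total RNA, and at 53 and 46 against 21 and 13 TPM in long tails. Cnih3, a cornichon protein that aids AMPA receptor export, was at 15 and 11 against 24 and 19 TPM in total RNA, and at 13 and 11 against 20 and 20 TPM in long tails. None of the 3 overlapped between the hairpins in either fraction. For total RNA, the authors' deposited table had Cacng2 higher in knockdown by 1.03 on the log2 scale (adjusted p = 0.00357) and Shisa6 at −0.96 (adjusted p = 0.00367). For long tails, the authors' deposited table had them at 0.95 (adjusted p = 0.00981) and −1.13 (adjusted p = 0.000145). The limma fit gave adjusted p of 0.568 for Cacng2 and 0.403 for Shisa6 in total RNA, and 0.503 and 0.328 in long tails. Of the 10 pore subunits, 0 were listed in either of the authors' deposited tables, which hold 104 and 97 genes, 0.436% and 0.407% of the gene table. Over the 14 auxiliary subunits, 5 differences were above 0 and 9 below in total RNA (median −0.06), and 10 above and 4 below in long tails (median 0.11). Without overlap, 3 were higher and 3 lower in total RNA (8.68% and 20.1% of all genes were), and 4 higher and 2 lower in long tails (8.91% and 17.1% of all genes).

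The scaffold and trafficking partners were described in the same way. Dlg3, a scaffold of NMDA receptors also called SAP102, was at 48 and 51 TPM in scrambled and 72 and 66 TPM in knockdown total RNA, and at 34 and 38 against 47 and 48 TPM in long tails. Both knockdown libraries were above both scrambled libraries in each fraction (limma adjusted p = 0.461 and 0.492). Dlg4, the scaffold PSD-95, was at 490 and 387 against 593 and 438 TPM in total RNA with overlap, and at 341 and 309 against 472 and 494 TPM in long tails without overlap. Shank3, a scaffold deeper in the postsynaptic density, was at 95 and 81 against 115 and 106 TPM in total RNA and at 57 and 55 against 81 and 57 TPM in long tails. Of the 15 genes of this list, 10 were above 0 and 5 below in total RNA (median 0.04), 6 above and 9 below in long tails (median −0.10). Without overlap, 4 were higher and 1 lower in total RNA, and 2 higher and 0 lower in long tails, beside the same shares of all genes (8.68% and 20.1%, then 8.91% and 17.1%).

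Factors that edit or bind glutamate receptor mRNAs formed a small list of 6 genes. Cpeb3, an RNA-binding protein known to repress AMPA subunit mRNAs, was at 14 and 13 TPM in scrambled and 8 and 9 TPM in knockdown total RNA, and at 10 and 9 against 6 and 3 TPM in long tails. Adar, an editing deaminase, was at 45 and 53 against 41 and 42 TPM in total RNA and at 35 and 40 against 30 and 27 TPM in long tails. Both genes were lower in each knockdown library, and the limma adjusted p was at least 0.492 for both in both fractions. Adarb2, a relative of the deaminases without known editing activity, overlapped in both fractions. Of the 6 genes, 3 were above 0 and 3 below in total RNA, and 6 of 6 were below 0 in long tails (median −0.30, beside −0.10 over all genes). In each fraction 2 were lower without overlap, as 20.1% of all genes were in total RNA and 17.1% in long tails.

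Among the metabotropic receptors, which signal through G proteins, 7 of 8 were tested. Grm7, a presynaptic receptor, was at 25 and 22 TPM in scrambled and 16 and 16 TPM in knockdown total RNA, and at 14 and 17 against 10 and 8 TPM in long tails. It was lower without overlap in each fraction (limma adjusted p = 0.659 and 0.405). Grm2 stayed at 2 to 3 TPM in every library and Grm4 at 6 to 11 TPM. The list median was −0.21 in total RNA and −0.50 in long tails, beside −0.07 and −0.10 over all genes. These medians were the values of Grm2 (means of 3 and 2.5 TPM) and Grm8 (1 and 0.5 TPM), levels at which whole-number TPM moves in large steps. Without overlap, 3 genes were lower and 0 higher in total RNA (20.1% and 8.68% of all genes were). In long tails 1 was lower and 2 were higher (17.1% and 8.91% of all genes were), Grm2 being among the higher ones. Of the 8 other ionotropic subunits, 7 were tested, and for none of them did the hairpins' libraries stay apart in either fraction (medians −0.11 and −0.13). Grid1, a delta receptor subunit, was at 46 to 56 TPM in total RNA and 32 to 43 TPM in long tails. Grin3a, an NMDA subunit of young synapses, was at 9 to 12 and 3 to 7 TPM. In none of the 5 lists did a gene pass the limma adjusted threshold for knockdown.

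The genes most like the leading subunit of each family were taken from 6809 genes with mean levels of 20 TPM or more, by Pearson r of log2(TPM + 1) over the 8 libraries. For Gria1 they included Gad2 (r = 0.997), an enzyme that makes GABA, and Clip1 (0.993), a microtubule plus-end protein. Those for Grin1 were C2cd2l (0.988), Spred3 (0.981) and Ldoc1l (0.972), and those for Grik5 were Tmcc2 (0.988), Dclk2 (0.983) and Atp13a1 (0.983). They were picked as the highest of many genes over the same libraries, so no p is given.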

How the data were processed

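RNA-seq of 8 libraries (4 groups of 2) was analysed from the gene table. The submitters' processing notes name the mm10 build and the tools TopHat2, CASAVA, RSEM, DESeq2 and DESeq, without versions or roles. The deposited values are TPM that the authors rounded to whole numbers, treated as a score. TPM of low genes therefore moves in steps, and the read depth is unknown, so no counting interval was made. The authors' 2 deposited tables list p-values, adjusted p-values and a log2 fold change per gene, and the sign was turned so that positive means higher in knockdown, since it ran opposite to the TPM for all 104 and 97 genes. The deposited mean signal per gene (normalized counts, per the file headers) was not used.

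Genes with mean levels of 1 TPM or more were taken as log2(TPM + 1), which understates changes of low genes, and fitted with limma 3.58.1 (R 4.3.3) on 4 group means with a mean-variance trend. Each of 5 contrasts was tested two-sided, with Benjamini-Hochberg adjustment over all 13681 genes and a threshold of 0.05. The fit was tried on simulated data for knockdown in total RNA only. These data gave every gene the same spread, unlike the real libraries, and changed only genes at 20 TPM or more. Shares and ratios used exact permutation tests (scipy 1.17.1). Groups and replicate numbers came from the titles. Named were the 10 subunits, Cnot7, 3 genes per list with the smallest mean p over the 2 knockdown contrasts, and 3 genes most like the leading subunit of each family; some items that these choices take are not reported here. The members and lists were chosen with earlier results of these data known. Sequences and coordinates came from GENCODE M21 on GRCm38, the assembly also called mm10. Alternatives covered filter, pseudocount, scaling, replicate block, groups in the fit and libraries left out.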

Additional observations from a re-analysis of the deposited data

How the results depend on the processing

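With 2 libraries a group and an unknown depth, few differences could pass. The number of genes called was 0 in each of the 5 contrasts and stayed at 0 with log2(TPM + 0.5), log2(TPM + 5), median centring and the replicate block. For knockdown in total RNA, knockdown in long tails, and then the fractions compared in scrambled and in knockdown cells, it was 43, 54, 33 and 56 with no filter, 6, 5, 2 and 1 at a mean of at least 5 TPM, 7, 13, 1 and 1 at 20 TPM, and 50, 83, 87 and 97 with only the groups of the contrast. The first 2 contrasts gave 4 and 1 after quantile normalization and 1 and 1 after rescaling without Rn45s. With 1 library left out it ran from 0 to 1, 0 to 2, 0 to 57 and 0 to 2125. The 57 came without knockdown total library 1, the 2125 without knockdown long-tail library 1, and 56 and 41 in the third contrast without knockdown total library 2 and knockdown long-tail library 2. Interaction calls were 0 throughout. Members passed only in the fit without knockdown long-tail library 1. That fit leaves 1 library in a group, so this is not read as a result about the subunits, and the cause was not tested.

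Some small differences changed sign with scaling. For knockdown in total RNA, Grin2a was at 0.045, 0.016 and 0.034 and Grik2 at 0.064, 0.041 and 0.059 after quantile normalization, without Rn45s and after median centring. For long tails minus total, Grin2b in scrambled neurons was at 0.12 (quantile) and 0.15 (centred), and Grin1 and Grik5 in knockdown neurons at 0.025 and 0.0050 (centred). The Grin1 interaction was at −0.029 (quantile) and −0.0085 (without Rn45s).

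With 1 library left out, knockdown in total RNA ran from −0.090 to 0.19 for Gria2, −0.092 to 0.28 for Grin1, −0.57 to 0.51 for Grin2a, −0.31 to 0.39 for Grin2b, −0.16 to 0.15 for Grik2 and −0.31 to 0.17 for Grik5. In long tails it ran from −0.22 to 0.31 for Gria1, −1.66 to 0.28 for Grin2a, −2.37 to 0.55 for Grin2b and −0.11 to 0.28 for Grik5. Grin2b ran from −0.50 to 0.32 for long tails minus total in scrambled and from −2.50 to 0.42 in knockdown neurons. The interaction ran from −0.43 to 0.10 for Gria1, −0.12 to 0.25 for Grin1, −1.63 to 0.31 for Grin2a, −2.41 to 0.51 for Grin2b, −0.58 to 0.0047 for Grik3 and −0.087 to 0.39 for Grik5. Shares and ratios kept their values within 1 SD with TPM + 1. The Grik5 share did so too with the other kainate subunits added to its family. That step could not change the AMPA shares, whose family gained no gene, or the Grin2a to Grin2b ratio. The replicate block could not change any of these differences either, since every group held the same library numbers. With 1 library left out, the knockdown difference in percentage points ran in total RNA from 1.40 to 6.94 for the Gria1 share, −2.60 to 1.49 for Gria2, −2.51 to −1.52 for Gria3 and −4.19 to 3.71 for Grik5. In long tails it ran from 7.06 to 13.02 for Gria1, −8.15 to −3.95 for Gria2, −3.14 to −2.00 for Gria3 and 1.97 to 8.95 for Grik5. The difference in the Grin2a to Grin2b ratio ran from −0.098 to 0.050 in total RNA and −0.084 to 0.213 in long tails.

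Deviations of same-numbered libraries correlated at 0.569 and 0.422 between the hairpins, 0.605 between the fractions in scrambled and −0.11 in knockdown neurons, and since the labels name no shared culture and 1 of the 4 was negative, the numbers were not taken as pairs. The replicate block called 0 genes in each contrast, and a crossed block for knockdown fractions, added after seeing the data, called 0. With the replicate block, 2 subunits had an unadjusted limma p under 0.05 for knockdown in long tails, against 1 without it. For long tails minus total, 4 did in scrambled neurons, against 2, and 7 in knockdown neurons, against 6. Whether same-numbered libraries share a culture is not known from the labels.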
